A study of Mus musculus with 17 samples.

Results

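The olfactory receptor genes treated here were all rows of the count table whose gene name began with *Olfr*, of any biotype. The rule found 31 of the 2615 listed genes, of which 24 were annotated as protein coding and 7 as pseudogenes. The counts came from RNA sequencing of 6 libraries of mouse oocytes, 3 of control and 3 of *Ehmt2GKO* females. All mice were C57BL/6J, aged 8 weeks, and carried *Ehmt2*(flox/flox), while the *Ehmt2GKO* group carried *Gdf9-Cre* in addition, so that Cre was present only on the deleted side. The *Gdf9* promoter drives Cre in the oocyte from the primordial follicle stage, which leaves the other cells of the ovary undeleted. The labels give the cells as MII oocytes, whereas the study's text calls them superovulated oocytes. The paper reports that few *Ehmt2GKO* oocytes got through the first meiotic division and describes an arrest at metaphase I. Meiotic stage may therefore differ between the groups, and it cannot be told apart from genotype here. The number of oocytes or females behind a library was not given in the sources used here. *Ehmt2* itself was not among the listed genes, so the deletion could not be checked in these counts.

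Odorant receptors are G protein-coupled receptors of the olfactory sensory neurons in the nose and form the largest gene family of the mouse genome. Their genes lie in long arrays on many chromosomes. Each neuron expresses a single receptor gene from a single allele, while the remaining receptor genes are held silent in heterochromatin that carries methylated lysine 9 of histone H3 (H3K9). EHMT2, also called G9a, is a methyltransferase that writes dimethylation of H3K9 (H3K9me2), a mark of silent chromatin. Transcripts of some odorant receptors are also found outside the nose, in testis among other tissues.

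The table held only genes that the authors had selected for a difference between these same 6 libraries, each with a deposited adjusted P below 0.05. A test on the listed genes therefore restates that selection, and the P values below are descriptive. *Olfr* genes outside the table were not analysed here. The libraries held 4060653 to 4258350 reads on the listed genes, and the depth over all genes was unknown. Replicates of a group differed by more than sampling noise in all pairs, and nothing in the labels says whether they came from separate females, so the spread between them may be technical.

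Of the 31 *Olfr* genes, 22 had the higher mean normalized count (TMM-scaled reads) in *Ehmt2GKO* oocytes and 9 the lower. This put 71% of them on the higher side, against 50.5% of all listed genes. In edgeR's quasi-likelihood fit 23 of them passed the filter on low counts, and 8 were too low to be tested. Calls needed a change of more than 2-fold together with an adjusted P (Benjamini-Hochberg) under 0.01. On this basis 16 *Olfr* genes rose (among them *Olfr48*, *Olfr1257*, *Olfr731* and *Olfr1217*), where 18.7% of the 2516 genes tested were called higher. A further 4 fell (*Olfr1052*, *Olfr1197*, *Olfr283* and *Olfr214*), where 16.9% of the genes tested were called lower. The 3 that were tested but not called were *Olfr1174-ps*, *Olfr1300-ps1* and *Olfr1463*. All 23 had an adjusted P below 0.01, as had 98.8% of the genes tested. The median log2 fold change over the 23 was 2.17, beside -0.32 over all genes tested. With the 8 untested genes placed at their bound or ratio, the median over all 31 was 2.19. In all 31 genes the control and *Ehmt2GKO* values did not overlap, which also held for 98.2% of the listed genes (22 on the higher side, against 49.9% of the listed genes, and 9 on the lower side, against 48.3%).

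**Figure D1:**
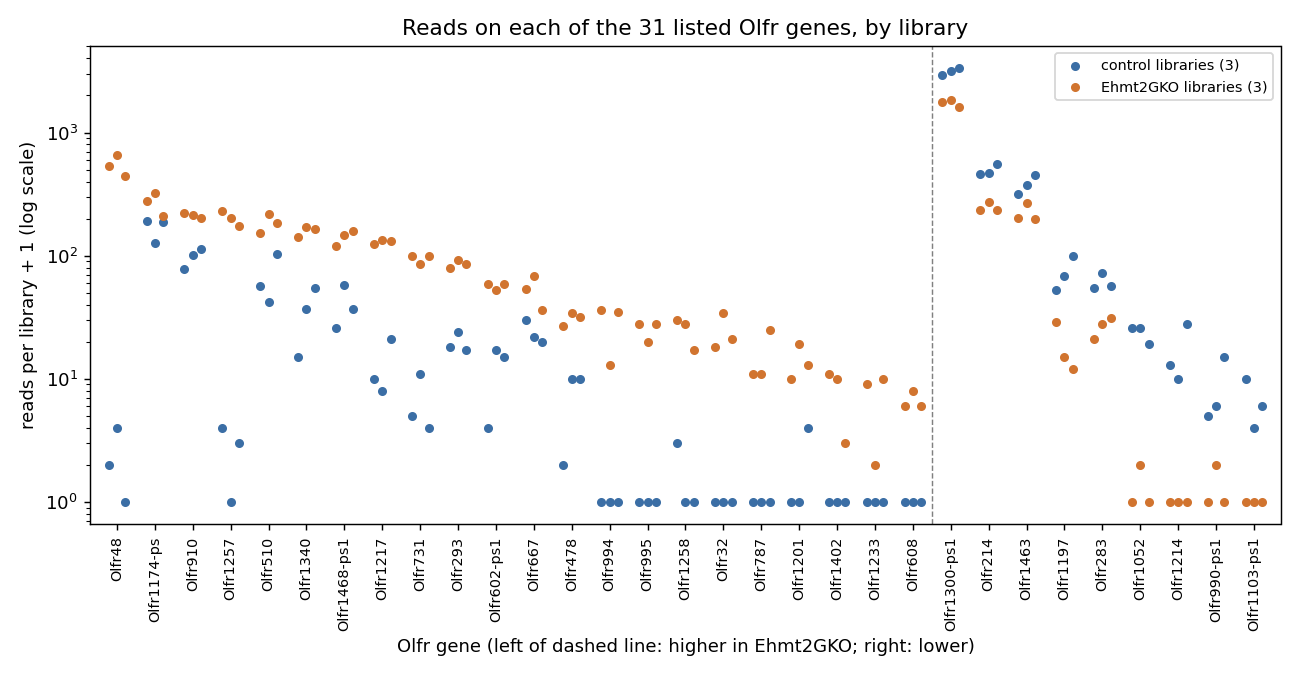
Reads plus 1 in each library (vertical axis, log scale) for each of the 31 Olfr genes (horizontal axis), 1 point per library, blue for control and orange for Ehmt2GKO. The 22 genes left of the dashed line were higher in Ehmt2GKO and 7 of them had 0 reads in every control library, and the 9 genes to its right were lower.

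Many of these genes were at or near 0 reads in one genotype. In the controls, 11 of the 31 had at most 3 reads in every library (35.5%, against 4.36% of the listed genes), and 7 of those had none, as had 1.8% of the listed genes. In *Ehmt2GKO* oocytes 4 had at most 3 reads in every library (12.9%, against 1.03% of the listed genes), and 2 had none, as had 0.306% of the listed genes. The plot of reads by library shows these genes at the foot of the axis on both sides. For a group with no reads, folds are given as lower bounds against a floor of 3 reads over the group. For a group with 1 to 5 reads in all, they are given as a ratio with an exact 95% counting interval. These bounds and intervals cover counting error only. In bulk oocyte RNA, fewer oocytes that hold a transcript and less of it per oocyte cannot be told apart.

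Among genes with any control reads, the 3 largest fold increases lay side by side near the distal end of a chromosome 2 stretch that held 10 of the 31 genes (chr2:88310284-90142296, GRCm38). *Olfr48* (ENSMUSG00000075072), an odorant receptor gene on the minus strand at chr2:89841793-89848205, had 1, 3 and 0 reads in the control libraries and 530, 653 and 439 in *Ehmt2GKO*. Its mean normalized count was 1.35 ± 1.53 (SD, n = 3) in control and 540 ± 117 (SD, n = 3) in *Ehmt2GKO*, a ratio of 403 (95% counting interval 157 to 1482). The fitted log2 fold change was 8.53 (SE 0.373, edgeR adjusted P = 1.13e-11), and 9.75 without control replicate 2, which held 3 of the 4 control reads. No control library had more than 3 reads on *Olfr48*, and the lowest *Ehmt2GKO* library had 439.

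*Olfr1257* (ENSMUSG00000049057) began 30.2 kb distal to *Olfr48*, on the opposite strand at chr2:89878437-89883026, with no other annotated *Olfr* gene between them. It had 3, 0 and 2 control reads and 231, 200 and 174 *Ehmt2GKO* reads, a ratio of 120 (51.3 to 372) with a log2 fold change of 6.81 (SE 0.423, edgeR adjusted P = 1.73e-09), or 7.49 without control replicate 1. *Olfr1258*, the next receptor gene after a gap of 44.3 kb, had 2, 0 and 0 control reads and 29, 27 and 16 *Ehmt2GKO* reads, a ratio of 35.8 (9.56 to 301), and both control reads came from replicate 1. These 3 adjacent receptor genes had at most 3 reads in any control library and at least 16 in every *Ehmt2GKO* library. *Olfr32* followed after 199.9 kb and 12 annotated *Olfr* genes that were not listed. It had no control reads and 17, 33 and 20 *Ehmt2GKO* reads, at least 23.2-fold higher in *Ehmt2GKO*. *Olfr1257* and *Olfr1258* were 82.6% identical over 892 aligned transcript bases, and *Olfr48* and *Olfr1257* 76.3% over 642. Both values were below the 95% at which copies were treated here as hard to separate by reads.

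The other 6 genes of this stretch lay proximal to *Olfr48* and went in both directions. *Olfr1217* rose from 9, 7 and 20 reads to 123, 133 and 130, with a log2 fold change of 3.41 (SE 0.340, edgeR adjusted P = 3.6e-07). *Olfr1214*, 28.7 kb from it on the same strand, went the opposite way, with 12, 9 and 27 control reads and none in *Ehmt2GKO*. It was too low to be tested and was at least 16.1-fold lower. Both genes thus had reads in every control library, and only *Olfr1214* had none in *Ehmt2GKO*. Between them lay 2 annotated *Olfr* genes that were not listed.

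*Olfr1197* fell from 52, 67 and 99 reads to 28, 14 and 11, a log2 fold change of -2.04 (SE 0.378, edgeR adjusted P = 0.000172). *Olfr1201*, only 60.7 kb further on, had 0, 0 and 3 control reads and 9, 18 and 12 *Ehmt2GKO* reads, a ratio of 12.9 (4.11 to 65.4), and was not tested. *Olfr1174-ps*, a transcribed pseudogene at the proximal edge of the stretch, stayed short of the 2-fold threshold, with 189, 125 and 185 control reads and 278, 320 and 208 in *Ehmt2GKO* (log2 fold change 0.68, SE 0.205, edgeR adjusted P = 0.00467). *Olfr1233* had no control reads and 1 to 9 reads in the *Ehmt2GKO* libraries. In all, 8 of the 10 genes were higher in *Ehmt2GKO* and 2 lower. The span held 91 annotated *Olfr* genes, and the 81 others were not listed. The nearest listed gene beyond the stretch was *Fnbp4*, which encodes a formin-binding protein. It lay 603 kb distal and had 7777, 8746 and 10650 control reads and 25671, 29956 and 27179 *Ehmt2GKO* reads (log2 fold change 1.61, SE 0.120, edgeR adjusted P = 1.49e-08).

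A second chromosome 2 stretch lay closer to the centromere (chr2:85388132-87010874) and held 5 of the 31 genes among 112 annotated *Olfr* genes. *Olfr994* and *Olfr995*, only 1.08 kb apart on the minus strand, both had 0 reads in every control library. *Olfr994* had 35, 12 and 34 reads in *Ehmt2GKO*, at least 26.9-fold higher, and *Olfr995* had 27, 19 and 27, at least 24.2-fold higher. Both genes were thus without reads in the controls at this depth and detected in every *Ehmt2GKO* library, and their transcripts were 90.4% identical over 749 bases. How the counting treated reads that could come from both was not given in the sources used here.

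The remaining 3 genes of this stretch were lower. *Olfr1052* fell from 25, 25 and 18 reads to 0, 1 and 0, a log2 fold change of -5.64 (SE 0.784, edgeR adjusted P = 1.23e-05) and a ratio of 68.4 (11.9 to 2740), and the single *Ehmt2GKO* read came from replicate 4. *Olfr990-ps1*, a single-exon pseudogene 40.3 kb from *Olfr994*, had 4, 5 and 14 control reads and 0, 1 and 0 in *Ehmt2GKO*. *Olfr1103-ps1*, a further single-exon pseudogene, had 3 to 9 control reads and none in *Ehmt2GKO*. The 3 genes together had at most 1 read each in any *Ehmt2GKO* library. The nearest listed gene, *Gm13715*, lay 144 kb to the left and was also at 0 in *Ehmt2GKO*, with 50, 43 and 57 control reads and none in any *Ehmt2GKO* library, at least 50.3-fold lower.

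**Figure D2:**
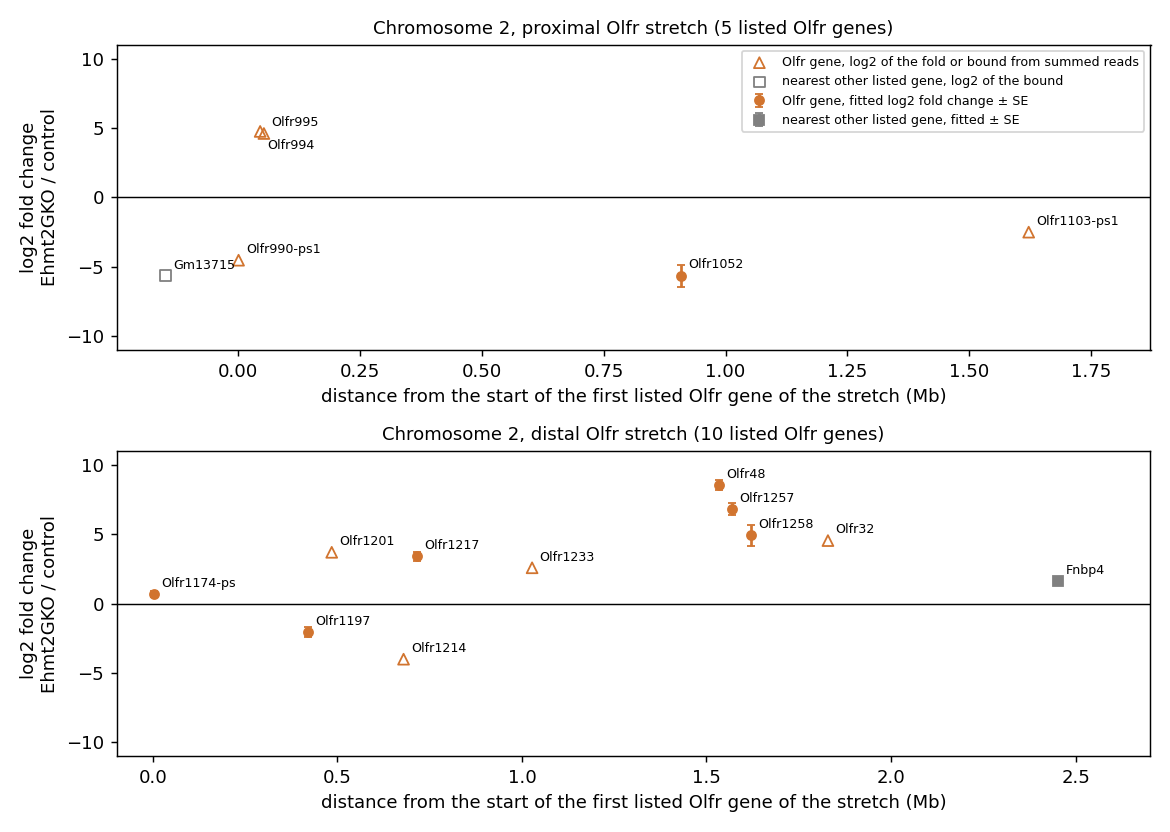
Log2 fold change of Ehmt2GKO over control (vertical axis) against distance in Mb from the first listed Olfr gene (horizontal axis) for the proximal (top, 5 Olfr genes) and distal (bottom, 10 Olfr genes) stretches of chromosome 2. Filled points are fitted values ± SE, hollow triangles are the log2 of the fold or bound from summed reads, and squares are the nearest other listed genes. Olfr48, Olfr1257, Olfr1258 and Olfr32 stand together above 0 at the distal end, while the other genes of both stretches lie on both sides of 0.

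Across all chromosomes, adjacent listed *Olfr* genes within 1 Mb formed 16 pairs. Both genes changed the same way in 9 pairs and opposite ways in 7, so that 56.2% matched. Among all neighbouring listed genes within the same distance, 1022 of 1882 pairs (54.3%) matched. The *Olfr* share was thus near that of all listed neighbours. The run of higher genes from *Olfr1217* to *Olfr32* was singled out after the values were seen. Unlisted *Olfr* genes lay in its gaps, with 15 between *Olfr1217* and *Olfr1233*, 21 between *Olfr1233* and *Olfr48* and 12 between *Olfr1258* and *Olfr32*. Of the 22 listed genes that lay within these stretches or next to them within 1 Mb, 12 were higher and 10 lower in *Ehmt2GKO*. *Cd160* (log2 fold change -0.42) and *Fmo5* (-1.28) were lower beside the higher *Olfr1402*, and *Ebna1bp2* (-0.31) and *Svbp* (-1.03) beside the higher *Olfr1340*. *AW551984* (-1.60) was lower beside the higher *Olfr910*, and *Mbd4* (0.59) higher beside the lower *Olfr214*. Of these, *Fmo5*, *Svbp* and *AW551984* were called. The other neighbours went the same way as the listed *Olfr* gene nearest to them.

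The sequences just upstream of the annotated 5′ ends are shown for 7 of the 12 chromosome 2 genes that were at or near 0 reads in one genotype, as examples of both directions from both stretches. They were chosen after their values were seen. Each is 250 bases, read 5′ to 3′ on the gene's strand from GRCm38.p6, and ends at the base before the annotated gene. Capitals mark a TATA box (TATAAA) or a homeodomain core (TAATTA) on either strand. The Olf1/Ebf core (TCCC and GGGA with any 2 bases between them), a motif known from olfactory promoters, was searched in the same way. The first 5 genes were higher in *Ehmt2GKO* and the last 2 lower.
Olfr48, chr2:89848206-89848455, minus strand: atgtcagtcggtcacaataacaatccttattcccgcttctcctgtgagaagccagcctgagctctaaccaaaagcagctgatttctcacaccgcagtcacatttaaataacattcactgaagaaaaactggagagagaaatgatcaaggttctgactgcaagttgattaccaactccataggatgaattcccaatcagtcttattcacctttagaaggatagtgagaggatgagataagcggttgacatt
Olfr1257, chr2:89878187-89878436, plus strand: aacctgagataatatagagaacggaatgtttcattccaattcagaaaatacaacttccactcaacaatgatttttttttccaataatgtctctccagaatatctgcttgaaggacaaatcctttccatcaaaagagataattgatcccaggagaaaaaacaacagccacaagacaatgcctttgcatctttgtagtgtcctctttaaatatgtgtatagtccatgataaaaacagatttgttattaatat
Olfr1258, chr2:89927059-89927308, plus strand: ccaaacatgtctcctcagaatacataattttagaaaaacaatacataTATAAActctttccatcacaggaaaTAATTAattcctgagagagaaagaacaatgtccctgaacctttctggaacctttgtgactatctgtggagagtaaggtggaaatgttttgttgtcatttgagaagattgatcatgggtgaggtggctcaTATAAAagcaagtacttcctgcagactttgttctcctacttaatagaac
Olfr32, chr2:90142297-90142546, minus strand: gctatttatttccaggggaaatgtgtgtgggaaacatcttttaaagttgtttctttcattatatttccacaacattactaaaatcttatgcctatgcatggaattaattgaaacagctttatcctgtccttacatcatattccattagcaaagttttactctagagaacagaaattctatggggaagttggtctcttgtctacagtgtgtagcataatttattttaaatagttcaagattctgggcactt
Olfr994, chr2:85436452-85436701, minus strand: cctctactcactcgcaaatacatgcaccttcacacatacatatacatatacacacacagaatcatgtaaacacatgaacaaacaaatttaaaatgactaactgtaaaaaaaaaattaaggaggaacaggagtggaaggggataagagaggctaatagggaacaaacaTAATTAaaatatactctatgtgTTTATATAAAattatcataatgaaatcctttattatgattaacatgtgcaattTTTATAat
Olfr1214, chr2:88992654-88992903, minus strand: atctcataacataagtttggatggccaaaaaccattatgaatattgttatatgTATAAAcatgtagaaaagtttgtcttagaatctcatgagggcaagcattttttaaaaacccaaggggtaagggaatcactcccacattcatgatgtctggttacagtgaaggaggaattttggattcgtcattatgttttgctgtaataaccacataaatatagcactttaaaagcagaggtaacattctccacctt
Olfr1052, chr2:86292205-86292454, plus strand: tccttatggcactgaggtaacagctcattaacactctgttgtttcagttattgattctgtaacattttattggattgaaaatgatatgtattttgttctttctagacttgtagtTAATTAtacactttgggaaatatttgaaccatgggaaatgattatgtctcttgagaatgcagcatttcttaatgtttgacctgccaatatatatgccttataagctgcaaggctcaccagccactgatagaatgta

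The windows of *Olfr48*, *Olfr1257* and *Olfr32* held none of the 3 motifs. That of *Olfr1258* held TATAAA starting 49 and 203 bases upstream and TAATTA starting 178 bases upstream. In *Olfr994* the matches to TATAAA and its reverse complement overlapped, so that they run together in capitals. Of the 31 windows, 25.8% held TATAAA, against 30.7% of all 1407 annotated *Olfr* genes and 15.8% of all annotated genes. TAATTA was in 35.5%, against 21.8% and 7.08%. The Olf1/Ebf core was in none, against 1.78% and 0.798%. TATAAA was in 22.7% of the windows of the 22 higher genes and 33.3% of those of the 9 lower genes, and TAATTA in 31.8% and 44.4%. These shares are descriptions over few windows. Where transcription began in these oocytes was not measured. RefSeq's promoter table for the mouse held 17 of the 31 genes. In 15 of these it placed the start 816 to 14603 bases downstream of the 5′ end used here, and in *Olfr32* and *Olfr478* within 100 bases of it.

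On chromosome 7 all 6 listed *Olfr* genes were higher in *Ehmt2GKO*, among 293 annotated there. *Olfr602-ps1*, *Olfr608* and *Olfr667* belong to the class I receptors, the older branch of the family, which lie around the β-globin genes. The pseudogene *Olfr602-ps1* rose from 3, 16 and 14 reads to 58, 52 and 58 (log2 fold change 2.33, SE 0.421, edgeR adjusted P = 0.000136). *Olfr608* had no control reads and 5 to 7 in each *Ehmt2GKO* library. *Olfr667* rose from 29, 21 and 19 reads to 53, 67 and 35 (log2 fold change 1.16, SE 0.353, edgeR adjusted P = 0.00515). Its change was the smallest of the chromosome 7 group. It was not called without control replicate 2 (log2 fold change 1.08) or 6 (1.01), or without *Ehmt2GKO* replicate 3 (1.15) or 4 (0.89).

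Between *Olfr602-ps1* and *Olfr608* lay *Usp17lc*, which encodes a deubiquitinase of a family known from early embryos. *Usp17lc* rose from 1, 2 and 2 reads to 116, 86 and 126 (log2 fold change 5.92, SE 0.441, edgeR adjusted P = 1.49e-08). Its relative *Usp17ld*, outside the stretch and 115 kb from *Olfr602-ps1*, rose from 0, 0 and 1 reads to 22, 14 and 13. *Usp17lc* was thus near 0 in the controls, like *Olfr608* beside it. *Gm45272*, 1.4 kb from *Olfr667*, had 270, 228 and 204 control reads and 426, 353 and 338 in *Ehmt2GKO*, a log2 fold change of 0.66 that was not called.

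The remaining chromosome 7 genes were class II receptors. *Olfr510* rose from 56, 41 and 103 reads to 153, 215 and 182, a log2 fold change of 1.46 (SE 0.280, edgeR adjusted P = 0.000225). *Olfr478*, in the same array, rose from 1, 9 and 9 reads to 26, 33 and 31 (log2 fold change 2.22, SE 0.501, edgeR adjusted P = 0.000766). *Olfr293*, which stood alone at chr7:86649061-86666045, rose from 17, 23 and 16 reads to 78, 92 and 85 (log2 fold change 2.17, SE 0.309, edgeR adjusted P = 1.5e-05). *Olfr293* and *Olfr478* thus had similar fold changes.

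Further genes on other chromosomes rose without a listed *Olfr* gene beside them. *Olfr731* on chromosome 14 rose from 4, 10 and 3 reads to 99, 84 and 99 (log2 fold change 4.01, SE 0.402, edgeR adjusted P = 3.79e-07), or 4.68 without control replicate 2. *Olfr1340* on chromosome 4 rose from 14, 36 and 54 reads to 142, 171 and 164 (log2 fold change 2.19, SE 0.326, edgeR adjusted P = 2.29e-05). The control spread of *Olfr1340* was wide, and all its *Ehmt2GKO* values still lay above it. *Olfr787* on chromosome 10 had no control reads and 10, 10 and 24 in *Ehmt2GKO*, at least 14.6-fold higher. *Olfr1402* on chromosome 3 had no control reads and 2 to 10 in *Ehmt2GKO*. Neither *Olfr787* nor *Olfr1402* was tested.

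The row named *Olfr910* had 77, 100 and 112 control reads and 223, 214 and 203 in *Ehmt2GKO*, a log2 fold change of 1.14 (SE 0.194, edgeR adjusted P = 8.24e-05). Its gene ID (ENSMUSG00000057444, chr9:38646590-38647522, minus strand) carries the name *Olfr915* in the GENCODE annotation, so that name and ID disagree. It also shares exon bases with *Gm49385*. It was the single listed *Olfr* gene on chromosome 9, where 173 are annotated. Chromosome 11 had none listed among 104 annotated.

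On chromosome 19 a pair of genes 135 kb apart went in opposite directions. The pseudogene *Olfr1468-ps1* rose from 25, 57 and 36 reads to 119, 147 and 159 (log2 fold change 1.84, SE 0.289, edgeR adjusted P = 3.79e-05). *Olfr1463* had 313, 375 and 455 control reads and 200, 269 and 196 in *Ehmt2GKO*, a log2 fold change of -0.78 (SE 0.176, edgeR adjusted P = 0.00076) that was short of the 2-fold threshold.

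The 3 *Olfr* genes with the highest levels per kb of exon in control oocytes, *Olfr1300-ps1*, *Olfr214* and *Olfr1463*, were all lower in *Ehmt2GKO*. *Olfr1300-ps1*, a polymorphic pseudogene at chr2:111667437-111693319, had 2941, 3143 and 3362 control reads and 1784, 1838 and 1598 in *Ehmt2GKO*. Its mean normalized count was 3155 ± 135 (SD, n = 3) in control and 1736 ± 142 (SD, n = 3) in *Ehmt2GKO*, a log2 fold change of -0.86 (SE 0.102, edgeR adjusted P = 2.33e-06) that was not called. It shares exon bases with *Gm44840*. *Olfr214* on chromosome 6 fell from 456, 464 and 559 reads to 234, 271 and 232, a log2 fold change of -1.01 (SE 0.146, edgeR adjusted P = 1.82e-05). *Olfr214* sat at the 2-fold threshold and was not called with median-ratio size factors (log2 fold change -0.92), without control replicate 6 (-0.93), or without *Ehmt2GKO* replicate 3 or 5 (-0.97 each). *Olfr283* on chromosome 15 fell from 54, 72 and 56 reads to 20, 27 and 30 (log2 fold change -1.24, SE 0.316, edgeR adjusted P = 0.0017).

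Summed over the 31 listed genes, the 2 directions nearly cancelled. All 31 genes together took 1058, 1108 and 1217 reads per 1000000 listed reads (RPM) in the controls and 1080, 1179 and 982 in *Ehmt2GKO*. The means were 1128 ± 81.6 and 1080 ± 98.4 (SD, n = 3 each), a ratio of 0.958 (1.03 with median-ratio scaling), and the groups overlapped. *Olfr1300-ps1* alone took 67.1% of the *Olfr* reads in the controls and 38.2% in *Ehmt2GKO*. Without it, the sums were 334, 353 and 426 in the controls and 655, 740 and 607 in *Ehmt2GKO*, a ratio of 1.80. The 22 higher genes went from 106, 108 and 136 to 540, 601 and 497 RPM, while the 9 lower genes went from 952, 1000 and 1082 to 540, 578 and 485. The last sums were split by the direction measured here and are a description. The total of these 31 genes was thus about level between the genotypes, while a smaller part of it fell on *Olfr1300-ps1* and a larger part on the 22 higher genes.

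**Figure D3:**
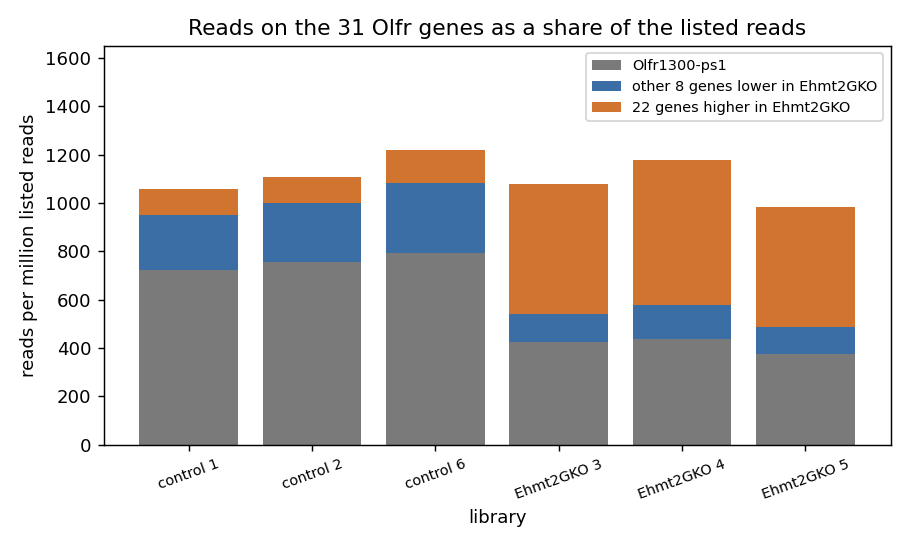
Stacked bars of reads on the 31 Olfr genes in RPM, reads per 1000000 reads on the listed genes (vertical axis), in each of the 6 libraries (horizontal axis), split into Olfr1300-ps1, the other 8 lower genes and the 22 higher genes. The totals overlap between the genotypes (982 to 1217), while the orange part grows from 106 to 136 in the controls to 497 to 601 in Ehmt2GKO.

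Levels between genes were compared as normalized counts per kb of annotated exon. In the controls *Olfr1300-ps1* was the highest at 1412 per kb, followed by *Olfr214* at 175, *Olfr1463* at 165, *Olfr910* at 103 and *Olfr1174-ps* at 93.2. In *Ehmt2GKO* oocytes *Olfr1300-ps1* was again the highest at 777 per kb. Behind it came *Olfr910* at 228, *Olfr1174-ps* at 150, *Olfr48* at 138 and *Olfr1468-ps1* at 117. *Olfr48* had been at 0.344 per kb in the controls and *Olfr1257* went from 0.609 to 72.8 per kb. The order below *Olfr1300-ps1* thus changed, with *Olfr214* dropping to 87.0 and *Olfr1463* to 95.8 per kb. These levels are per annotated exon length and were not measured per transcript.

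The *Olfr* genes had few reads for this table, with a median of 37.4 mean normalized counts, against 330.4 over all listed genes. Over the genes tested, the median absolute log2 fold change was 2.19 for *Olfr* genes and 0.76 for all. A gene with few reads needs a large change to be selected, so the size of the changes was also compared among low-count genes only. Among tested genes with a mean normalized count under 100, the median absolute log2 fold change was 2.33 over 15 *Olfr* genes and 1.61 over all 610. Among listed genes under that limit, 39.1% of the 23 *Olfr* genes had at most 3 reads in every control library, against 15.7% of all 709. The higher side held 73.9% of these *Olfr* genes and 58.4% of all. The differences were thus smaller under that limit than over all genes. Counts were not matched below the limit, and none of these shares was tested.

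**Figure D4:**
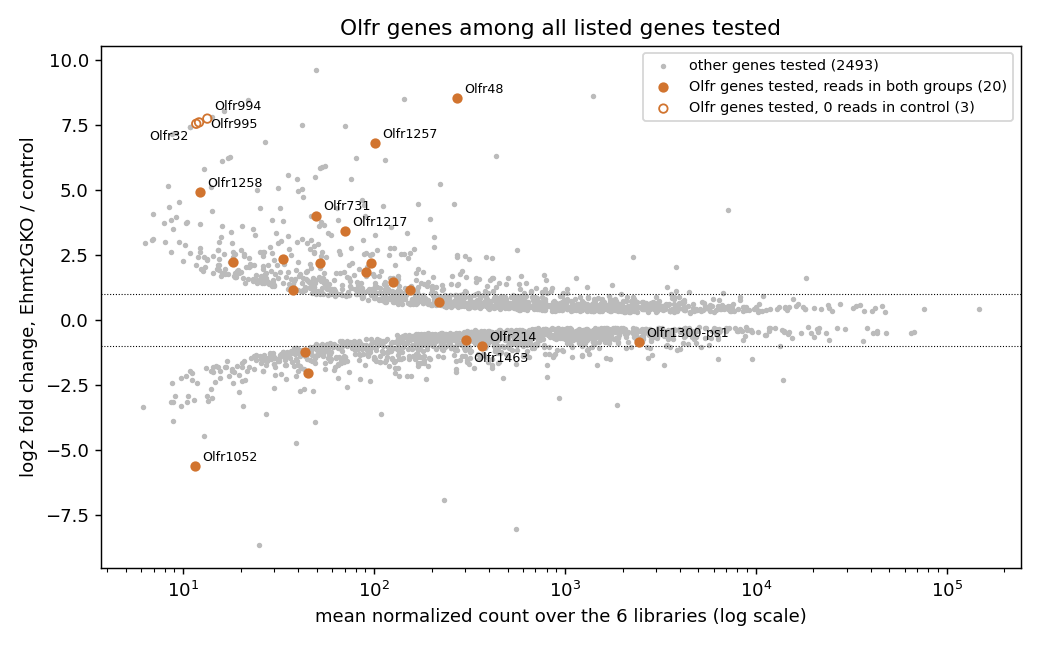
Fitted log2 fold change of Ehmt2GKO over control (vertical axis) against the mean normalized count over the 6 libraries (horizontal axis, log scale) for the 2516 genes tested, with the 23 tested Olfr genes in orange and dotted lines at a 2-fold change. Hollow points are the 3 Olfr genes with 0 control reads, whose fitted value depends on the prior count and is no measure of size, and Olfr48 and Olfr1257 lie above most genes of like count.

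Only 2.2% of the 1407 *Olfr* genes annotated in GENCODE were listed, compared with 4.71% of all annotated genes. The listed *Olfr* genes lay on 10 of the 19 chromosomes that carry the family, with 16 on chromosome 2. Of the 31, 27 had a multi-exon transcript, as did 79% of annotated *Olfr* genes. Their median exon length was 2602 bases, beside 2576 over the family. The listed genes were thus of ordinary structure for *Olfr* genes, which carry noncoding 5′ exons.

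A few values could be mixed between near-identical genes. *Olfr1174-ps* was 97.1% identical to *Olfr1175-ps* over 995 transcript bases, *Olfr1197* 97.0% to *Olfr1196* over 945, *Olfr1201* 96.3% to *Olfr1205* over 914, and *Olfr602-ps1* 95.6% to *Olfr597* over 1171. None of these copies was listed. The counts of these 4 genes, and of *Olfr910* and *Olfr1300-ps1* with their overlapping genes, are therefore uncertain. Below the 95% limit, *Olfr1217* was 94.6% identical to *Olfr1219* over 911 bases, and *Olfr787* 92.4% to *Olfr774* over 939. *Olfr731* matched *Nom1*, a gene outside the family, at 92.8% over 552 bases. *Olfr667* matched *Xpnpep1*, also outside it, at 87.8% over 613. Mixing of reads in these genes was not tested. The strand setting of the counting was not given in the sources used here.

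The genes that move odorant receptors to the membrane and carry their signal were nearly all outside the table. So were most genes of any kind, as 4.71% of all annotated genes were listed. Of 20 such genes 1 was listed, the chloride cotransporter gene *Slc12a2*, with 675, 682 and 591 control reads and 936, 948 and 823 in *Ehmt2GKO* (log2 fold change 0.47, not called). Of 13 regulators of receptor choice 1 was listed, the homeodomain gene *Lhx2*, with 129, 132 and 99 control reads and 183, 158 and 219 in *Ehmt2GKO* (log2 fold change 0.63, not called). Neither *Slc12a2* nor *Lhx2* changed by 2-fold or more, and the unlisted genes of both lists were not analysed here.

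Of 20 genes of the H3K9 methylation machinery 4 were listed, where 4.71% of all annotated genes were listed. *Kdm3a*, a demethylase that removes H3K9me2, rose from 69, 63 and 77 reads to 170, 127 and 131 (log2 fold change 1.02, SE 0.223, edgeR adjusted P = 0.000607). *Setdb1*, an H3K9 methyltransferase, had a log2 fold change of -0.68, and *Cbx1*, which encodes the heterochromatin protein HP1β, one of -0.70. *Mphosph8*, a reader of methylated H3K9 in the HUSH complex, was at 0.49. The last 3 were not called. Of the 4 listed genes 1 was thus called higher, where 18.7% of the genes tested were called higher.

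Other chemoreceptor families, the vomeronasal, trace amine-associated, formyl peptide and taste receptors and the guanylate cyclase gene *Gucy2d*, had 6 listed genes of 630, where 4.71% of all annotated genes were listed. Of these 5 were higher and 1 lower, where 50.5% of listed genes were higher, and 3 were called, all higher, where 18.7% of the genes tested were called higher. *Vmn2r94* rose from 0, 1 and 0 reads to 20, 48 and 34, and *Vmn2r15* from 3, 6 and 0 to 21, 22 and 13. *Vmn1r202* rose from 20, 19 and 11 reads to 50, 44 and 33 (log2 fold change 1.33, SE 0.367, edgeR adjusted P = 0.00287). *Vmn2r94* thus resembled *Olfr1258* in its near absence from the controls.

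Markers of other cells were mostly outside the table, where 4.71% of all annotated genes were listed. Of 11 olfactory neuron markers 1 was listed, *Tubb3*, a tubulin gene of many cell types, whose groups overlapped (1584 to 2123 control reads and 2062 to 3301 in *Ehmt2GKO*). No immune marker of 10 and no red blood cell marker of 6 was listed. Of 24 cumulus and granulosa markers 3 were listed, with summed reads of 7322 to 8640 in control and 14054 to 14922 in *Ehmt2GKO*, nearly all from the sterol synthesis gene *Hmgcs1*. Among them *Ptgs2*, the cyclooxygenase induced in cumulus cells at ovulation, rose from 6, 10 and 14 reads to 107, 74 and 59 (log2 fold change 2.98, SE 0.382, edgeR adjusted P = 5.46e-06). *Kitl* was lower (log2 fold change -0.63) and was not called. Markers outside the table could not be read as absent, and the part of other cells in the *Olfr* values was not tested. Of 18 oocyte markers 7 were listed, 3 higher and 4 lower, with summed reads of 49338 to 61691 in control and 57276 to 60916 in *Ehmt2GKO*. *Zp3*, a zona pellucida gene, fell from 6915, 6957 and 6951 reads to 3653, 3192 and 3263 (log2 fold change -1.05, SE 0.0966, edgeR adjusted P = 1.58e-07).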

How the data were processed

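RNA of oocytes labelled as MII was amplified with a Smart-Seq v4 kit and sequenced, with 3 control (replicates 1, 2 and 6) and 3 *Ehmt2GKO* (replicates 3, 4 and 5) libraries. The 11 RRBS samples were not analysed here. The deposited counts are whole reads per gene and library, without normalization, from reads aligned to GRCm38. The submitters' processing notes name HISAT2 and DESeq2, and the counting program, strand setting, handling of shared reads and annotation were not given in the sources used here. The authors also deposited a fold change as a ratio, its log2 and P values of their own comparison. Those values were not used, except that each listed gene was checked to have a deposited adjusted P below 0.05.

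Counts were fitted over all 2615 genes in R 4.3.3 with edgeR 4.0.16 (filterByExpr with a minimum count of 10, TMM, quasi-likelihood F-test, prior count 0.125), and P values were adjusted by Benjamini-Hochberg over the 2516 genes tested. The SE of a gene follows from its F statistic and log2 fold change. Both fits were tested on simulated data. An exact permutation test of 3 against 3 libraries cannot go below P = 0.1, so none was used. Alternatives were DESeq2 1.42.0, other size factors, no filter, other thresholds, a prior count of 2 and each library left out. *Olfr* genes within 1 Mb of each other were treated as one stretch. Gene models were taken from GENCODE vM21 on GRCm38.p6 and RefSeq, with 30 of the 31 genes identical in name and position to GENCODE. Transcripts were compared with blastn 2.17.0, and at least 95% identity over at least 500 bases counted as a near-identical copy. Figures were drawn with Python 3.11.15 and matplotlib 3.10.9.

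The genes and lists were chosen with earlier results of these data known. Reads per library were given for each *Olfr* gene with a mean normalized count of at least 10 in one group (26 genes). The other 5 were given as ranges, except *Olfr990-ps1*, whose reads per library were also given. Other named genes lay next to these stretches or were on the lists for odorant signalling, receptor choice, H3K9 methylation, chemoreceptors and cell types. Not all such genes were named.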

Additional observations from a re-analysis of the deposited data

How the results depend on the processing

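No paired analysis was possible because the control libraries are numbered 1, 2 and 6 and the *Ehmt2GKO* libraries 3, 4 and 5. Over the 23 tested *Olfr* genes, 244 of 253 comparisons with alternative settings kept the direction and the side of the threshold, 9 were weaker and 0 reversed. The 9 concerned *Olfr214* and *Olfr667*. The count called higher was 16 and ranged from 16 to 18 with each library left out, and was 21 with DESeq2, 21 without a filter and 17 with the adjusted P alone. The count called lower was 4 and ranged from 3 to 5 with each library left out, and was 7 without a filter and 6 both with DESeq2 and with the adjusted P alone. Without a filter all 31 genes entered the fit. The median log2 fold change of 2.17 became 1.94 with a prior count of 2, which pulls low counts towards 0, and ranged from 1.82 to 2.28 with each library left out. The lowest value came without control replicate 1. The ratio of summed *Olfr* reads, 0.958, became 1.80 without *Olfr1300-ps1*, 1.73 without pseudogenes and 1.85 without genes that have a near-identical copy or share exon bases, the last chosen after seeing the data, and ranged from 0.914 to 1.00 with each library left out. *Olfr1300-ps1* was among the genes removed in each of the 3. Other scalings shifted the median of all genes by at most 0.0938 on the log2 scale. Depth limits the 8 untested genes, whose folds rest on few reads.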
